A study of Mus musculus with 3 samples.

Results

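The 8 genes described here belong to 3 small families of primary response genes: Ier2, Ier3 and Ier5; Btg1 and Btg2; and Gadd45a, Gadd45b and Gadd45g. They were taken by symbol, with no threshold on their values, and all 8 had a row among the 55536 annotated genes. All 8 were also among the 15873 genes detected, where detected means a mean expected count of at least 10. RNA from the chromatin fraction of bone-marrow-derived macrophages was sequenced as total RNA after removal of ribosomal RNA. The cells, from C57BL/6J mice, are phagocytes grown from bone marrow progenitors. They were exposed to 100 ng/ml Lipid A, the TLR4-activating part of bacterial lipopolysaccharide, for 12 h, kept without it for 12 h, and exposed again to 100 ng/ml for 15 min. This is 1 group of 3 libraries, numbered as biological replicates 1, 2 and 3, and no untreated, singly treated or unrestimulated cells were analysed here. Levels are therefore described, and no change with Lipid A can be read from them. The labels name 1 donor identifier and do not say whether different animals were used, so differences between libraries may be technical.

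Primary response genes are transcribed within minutes of a signal without new protein synthesis. RNA held on chromatin is largely nascent or newly made, so its level lies closer to transcription than that of cytoplasmic mRNA. Ier (immediate early response) proteins modulate signalling and stress responses: Ier2 is a nuclear regulator linked to cell movement, Ier3 acts on cell survival, and Ier5 brings the phosphatase PP2A to targets such as the heat shock factor HSF1. Btg1 and Btg2 restrain proliferation and recruit the CCR4-NOT deadenylase, which shortens mRNA tails. Gadd45 proteins bind and activate Map3k4, a kinase upstream of p38 and JNK, and also bind cell cycle and DNA repair proteins. Btg2 and Gadd45a are textbook targets of p53, and Gadd45b is a known target of NF-κB, the main transcription factor downstream of TLR4.

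Upstream sequences are shown for the member with the highest level in each family (Gadd45b, Ier5 and Btg1), and for Ier3, whose window held the NF-κB consensus. They come from RefSeq windows of 300 bases on GRCm38.p6 (the assembly of mm10), of which 7 of the 8 genes had one. Only the bases before every annotated start are printed, 5′ to 3′ on the strand of the gene, with the motif matches of the next paragraph in capitals.
Gadd45b chr10:80929841-80930072 plus strand: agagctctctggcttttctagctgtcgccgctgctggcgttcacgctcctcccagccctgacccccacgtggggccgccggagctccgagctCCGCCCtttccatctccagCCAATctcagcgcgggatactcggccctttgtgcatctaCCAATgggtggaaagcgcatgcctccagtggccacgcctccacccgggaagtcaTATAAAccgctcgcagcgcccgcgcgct
Ier5 chr1:155099637-155099886 minus strand: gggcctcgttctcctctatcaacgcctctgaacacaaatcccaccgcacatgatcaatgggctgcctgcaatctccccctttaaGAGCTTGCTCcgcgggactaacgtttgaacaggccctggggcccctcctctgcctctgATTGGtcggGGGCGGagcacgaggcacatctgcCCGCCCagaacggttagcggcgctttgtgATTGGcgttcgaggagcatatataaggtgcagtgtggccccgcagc
Btg1 chr10:96616751-96617000 plus strand: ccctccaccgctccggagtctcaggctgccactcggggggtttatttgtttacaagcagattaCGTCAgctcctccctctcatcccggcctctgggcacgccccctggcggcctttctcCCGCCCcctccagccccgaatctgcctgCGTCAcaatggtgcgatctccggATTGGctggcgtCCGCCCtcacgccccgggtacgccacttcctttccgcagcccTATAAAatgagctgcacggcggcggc
Ier3 chr17:35821463-35821683 plus strand: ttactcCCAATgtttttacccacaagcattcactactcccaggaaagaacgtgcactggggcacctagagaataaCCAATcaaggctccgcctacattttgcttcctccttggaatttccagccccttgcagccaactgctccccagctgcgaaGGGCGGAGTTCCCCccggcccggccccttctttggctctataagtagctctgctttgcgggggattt

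The motifs were searched on both strands of the whole windows, and a match describes letters and not binding. CCAAT was present in 7 of 7 windows, against 37.4% of 32851 RefSeq windows of that length, and the GC box GGGCGG in 6 of 7 (all but Gadd45g), against 35.7%. TATAAA was found in Btg1, Gadd45b and Gadd45g (13.6% of all windows), and lay 26, 46 and 27 bases before the RefSeq start. TGACG, the core of the CREB site, was found in Btg1 and Btg2 (20.8% of all windows). In Btg2 its matches on the opposite strands overlapped as TGACGTCA, 166 bases upstream. The NF-κB consensus was found in Ier3, 92 bases upstream and overlapping a GC box (4.51% of all windows). The p53 half-site, a decamer, was found in Ier5 and Gadd45a, 166 and 40 bases before the RefSeq start (8.36% of all windows). The match in Gadd45a lay within the span of another annotated transcript, Gadd45a-205, which starts farther upstream. The AP-1 site TGANTCA (7.81% of all windows) and the CArG box bound by serum response factor (1.63%) were in none of the 7. GC content ran from 54% in Ier3 to 72% in Btg2, above the median of 52.7% over all windows in each of the 7.

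Expected counts per library totalled 14609979, 17423948 and 24162551, from 1000, 250 and 500 ng of starting RNA. The 8 genes together held 0.0242, 0.0198 and 0.0246% of the gene counts. Replicate 1 stood apart in inflammatory genes that were picked with earlier results known: the cytokine gene Tnf had 177, 51.6 and 74.2 TPM and the interferon-induced chemokine gene Cxcl10 268, 70.7 and 83.6 TPM. TPM is the length-scaled share of a transcript in a library. All 10 macrophage markers were at 1 TPM or more, with summed levels of 2144 to 2637 TPM. None of 6 neutrophil, 6 lymphocyte, 6 stromal and 5 mast cell or basophil markers reached 1 TPM, and the summed levels of these lists were at most 2.89 TPM in the alignment-based table. Among 6 dendritic cell markers only Zbtb46 reached it there, at 1.58 ± 0.165 TPM (SD, n = 3). Among erythroid markers only Alas2 did, at 10.4 ± 1.78 TPM, while Hba-a1 was listed at 0 in every library. By the read-based values, 2 neutrophil, 2 lymphocyte, 2 stromal, 2 dendritic, 1 erythroid and 0 mast cell or basophil markers reached 1 TPM. The T cell gene Cd3d, named after its values were seen, had 15.2 ± 2.43 TPM by those values and 0.0167 ± 0.0289 TPM in the alignment-based table. The part of other cells in the levels of the 8 genes was not tested. In bulk RNA, fewer expressing cells and less RNA per cell cannot be told apart.

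By mean level Gadd45b was the most abundant of the 8 genes, and the other 2 Gadd45 genes were the least abundant. In replicate 1 the lowest of the 8 was Ier2, at 4.45 TPM. Mean levels ran from 61.9 TPM (Gadd45b) through Ier5, Ier3, Btg1, Btg2, Ier2 and Gadd45a to 4.32 TPM (Gadd45g). The median of the 8 genes was 4.07 ± 0.20 on the log2(TPM + 1) scale (SD, n = 3), with 3.94, 3.97 and 4.31 in replicates 1, 2 and 3. The median over detected genes was 3.09 ± 0.02. Means of at least 10 TPM were found for Gadd45b, Ier5, Ier3, Btg1 and Btg2, 5 of 8, beside 42.9% of detected genes and 26.4% of the 22028 annotated protein-coding genes. Without replicate 1 Ier2 passed too, giving 6 of 8. All 8 genes are both protein-coding and detected, so neither share is of genes just like them. Among detected protein-coding genes Ier2, with a mean of 9.86 TPM, lay at percentile 50.1, Gadd45a at 37.0 and Gadd45g at 31.3. Against such genes, 5 of 8 did not set the 8 genes apart.

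Only the step from Gadd45b to Ier5 was several times its own spread between libraries. Its difference was 1.35 ± 0.30 in log2(TPM + 1), and Gadd45b lay above Ier5 in all 3 libraries. Ier5 and Ier3 differed by 0.03 ± 0.09 and Ier3 and Btg1 by 0.13 ± 0.33, so these 3 genes were not separable in level. Btg1 lay above Btg2 by 0.59 ± 0.53, in 2 of 3 libraries. Btg2 exceeded Ier2 in all 3 libraries, but its margin of 0.50 ± 0.48 was about as large as its SD. The remaining steps, Ier2 over Gadd45a (0.64 ± 1.08) and Gadd45a over Gadd45g (0.28 ± 0.75), were smaller than their SD. In the read-based quantification Ier3 lay above Ier5 in all 3 libraries, and Ier2 was above Gadd45a in 1 of 3. Btg1 over Btg2 (0.90 ± 0.53) and Gadd45a over Gadd45g (0.41 ± 0.55) held there in all 3 libraries. No test of these steps is given: the exact sign-flip test over 3 libraries cannot go below p = 0.25.

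**Figure D1:**
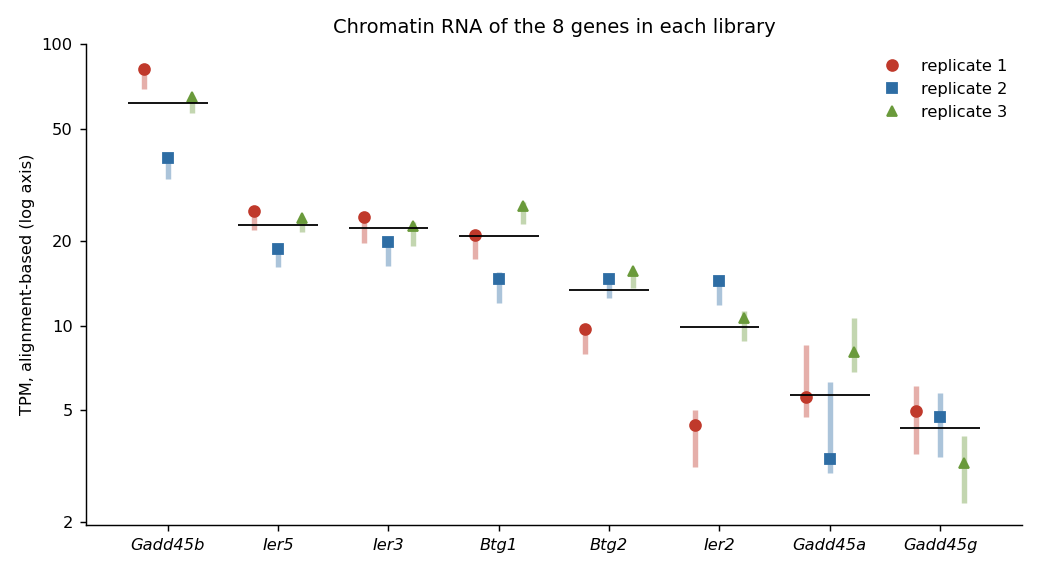
TPM of each gene (log axis) in the 3 libraries, ordered by mean. Points are the alignment-based TPM, black lines the mean, and pale bars the authors' deposited interval around the posterior mean, which need not hold the point. Gadd45b sits above the other genes in every library, and replicate 1 is the low point of Ier2 and Btg2.

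Gadd45b (ENSMUSG00000015312.9, chr10:80930073-80932204 on mm10, plus strand), the member known to be induced by inflammatory signals and to limit cell death, had 81.4, 39.4 and 64.8 TPM in replicates 1, 2 and 3, from 809, 479 and 1013 expected counts. Its mean was 61.9 ± 21.1 TPM (SD, n = 3), at percentile 90.2 of detected protein-coding genes. Replicate 1 was highest and replicate 2 lowest, 2.06-fold apart, and the mean without replicate 1 was 52.1 TPM. The authors' deposited intervals, whose level the sources do not state, were 69.2 to 80.5, 33.2 to 40.5 and 57.0 to 65.3 TPM and did not overlap. Those intervals describe the estimate within a library and not the spread between cultures.

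Gadd45a (ENSMUSG00000036390.8, chr6:67035096-67037457, minus strand), the member classically induced by DNA damage, had 5.57, 3.35 and 8.04 TPM, with a mean of 5.65 ± 2.35 TPM. Its expected counts were 54.7, 39.0 and 105, so its counting error was among the largest of the 8 genes. Replicate 3 was highest and replicate 2 lowest, and their authors' intervals (6.87 to 10.6 and 3.00 to 6.29 TPM) did not overlap, while that of replicate 1 (4.74 to 8.57) overlapped both. Gadd45a shares 859 bases with E230016M11Rik, a gene on the opposite strand at chr6:67036599-67080654. That gene had 3.07, 5.84 and 5.77 TPM, and 17.0% of the 31-base words of Gadd45a transcripts also occur in its transcripts, on either strand. The sources used here do not give a strand setting for the counting, so the division of reads between Gadd45a and E230016M11Rik is uncertain.

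Gadd45g (ENSMUSG00000021453.2, chr13:51846678-51848468, plus strand), the member known for roles in differentiation and T cell cytokine production, had 4.97, 4.74 and 3.25 TPM from only 50, 57 and 50 counts. Its mean was 4.32 ± 0.934 TPM, and the authors' intervals of the 3 libraries all overlapped one another. The libraries were thus not separable for Gadd45g at this depth. Within libraries, Gadd45b exceeded Gadd45g by 16.4, 8.32 and 19.9 times and Gadd45a by 14.6, 11.8 and 8.06 times. The dominance of Gadd45b within its family was therefore present in each library. The order of Gadd45a and Gadd45g depended on the quantification. Their ratio was 1.12, 0.707 and 2.47 in the alignment-based table. In the read-based table it was 1.05, 1.12 and 2.36, with Gadd45a above in all 3 libraries.

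Ier2 (ENSMUSG00000053560.4, chr8:84661331-84662852, minus strand), a gene of 1 exon, had 4.45, 14.5 and 10.7 TPM from 73, 288 and 270 counts. Its mean of 9.86 ± 5.05 TPM had the widest relative spread of the 8 genes, a coefficient of variation of 51.3%. Replicate 1 was the low library, 3.25-fold below replicate 2, and the authors' intervals (3.16 to 5.03, 11.9 to 14.9 and 8.85 to 11.2 TPM) were all separate. Without replicate 1 the mean was 12.6 TPM.

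Ier3 (ENSMUSG00000003541.6, chr17:35821684-35822923, plus strand) had 24.2, 19.9 and 22.6 TPM, a mean of 22.2 ± 2.19 TPM from 279, 274 and 397 counts. It was the steadiest of the 8 genes, with a coefficient of variation of 9.84%, and the authors' intervals of the 3 libraries overlapped one another. Flot1, a membrane scaffold gene on the same strand, begins 307 bases beyond the end of Ier3 and had 34.1 ± 3.97 TPM. None of the 31-base words of Ier3 occur in another gene's transcripts.

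Ier5 (ENSMUSG00000056708.5, chr1:155096361-155099636, minus strand), also a gene of 1 exon, had 25.6, 18.7 and 24.0 TPM from 980, 890 and 1447 counts. Its mean was 22.8 ± 3.59 TPM. Replicate 2 was low, and its interval of 16.2 to 18.5 TPM lay below those of replicates 1 and 3, which overlapped each other. Ier5 and Ier3 kept a near constant proportion, with ratios of 1.06, 0.942 and 1.06, while Ier5 over Ier2 ran from 1.30 in replicate 2 to 5.75 in replicate 1. The Ier genes thus did not vary as a block: Ier2 was highest in replicate 2, where Ier5 was lowest, both with separate intervals. Ier2 was lowest in replicate 1, where Ier3 and Ier5 had their highest values. Overlapping intervals leave that highest rank of Ier3 and Ier5 uncertain.

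Btg1 (ENSMUSG00000036478.8, chr10:96617006-96622809, plus strand) had 21.03, 14.7 and 26.7 TPM, a mean of 20.8 ± 5.99 TPM from 939, 826 and 1865 counts. All 3 of its authors' intervals were separate, with replicate 3 highest and replicate 2 lowest. Btg1 has processed copies in the genome, and 4.08% of its 31-base words occur in transcripts of 20 other genes. Its annotated pseudogenes Btg1-ps1 and Btg1-ps2, and Gm14519, the gene sharing most words with it, were listed at 0 TPM in every library of the alignment-based table.

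Btg2 (ENSMUSG00000020423.6, chr1:134075170-134079120, minus strand) had 9.76, 14.7 and 15.6 TPM, a mean of 13.3 ± 3.13 TPM from 309, 575 and 772 counts. Replicate 1 was the low library, with an interval of 7.94 to 9.93 TPM below those of the other 2, which overlapped. Without replicate 1 the mean of Btg2 was 15.1 TPM. Btg1 and Btg2 did not keep a constant proportion: Btg1 was 2.15 and 1.71 times Btg2 in replicates 1 and 3 and 0.999 times in replicate 2.

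By their median spread, the 8 genes varied more between libraries than the typical detected gene, and in different directions. Their median SD of log2(TPM + 1) was 0.38, against 0.16 over detected genes, while Ier3 had only 0.14. A range of at least 2-fold on that scale was reached by Ier2, Gadd45a and Gadd45b, 3 of 8, against 3.7% of detected genes. With counts scaled by TMM or DESeq2 size factors in place of TPM it was 1 of 8, Ier2, since the highest-to-lowest ratios of Gadd45a and Gadd45b (2.04 and 2.02 under TMM) fell below 2-fold once the pseudocount of 1 was added. The count was 1 without replicate 1 and 1 without replicate 2. Authors' intervals were separate in at least 1 pair of libraries for 6 of 8 genes (all but Ier3 and Gadd45g), against 25.8% of detected genes. Genes with more counts have narrower intervals, and the median level of the 8 genes was above that of detected genes.

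Gadd45b, Ier3, Ier5 and Gadd45g were highest in replicate 1, 4 of 8, beside 38.9% of detected genes. Ier2 was highest in replicate 2, 1 of 8 beside 28.7%, and Btg1, Btg2 and Gadd45a in replicate 3, 3 of 8 beside 31.7%. Ier2 and Btg2 were lowest in replicate 1, 2 of 8 beside 34.3% of detected genes. Gadd45b, Ier3, Ier5, Btg1 and Gadd45a were lowest in replicate 2, 5 of 8 beside 39%, and Gadd45g in replicate 3, 1 of 8 beside 25.8%. With 8 genes these counts were not tested against the background. The library that was highest and the one that was lowest were the same for each of the 8 genes in the read-based table, with posterior mean TPM, and with TMM or DESeq2 scaling. These scales all come from the same 3 libraries, so the agreement describes processing and is no repeat measurement. For Ier3 and Gadd45g, whose authors' intervals all overlapped, the highest and lowest library are uncertain. They are also uncertain for Gadd45a, where the interval of replicate 1 overlapped those of replicates 2 and 3. The highest library is uncertain for Ier5 and Btg2 as well. Intervals of replicates 1 and 3 overlapped in Ier5, and those of replicates 2 and 3 in Btg2. The ratio of Gadd45b to Ier2 was 18.3, 2.73 and 6.08 in replicates 1, 2 and 3, and 22.4, 4.06 and 9.05 in the read-based table. Starting RNA and depth also differed between the libraries, and their part in these differences was not tested.

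**Figure D2:**
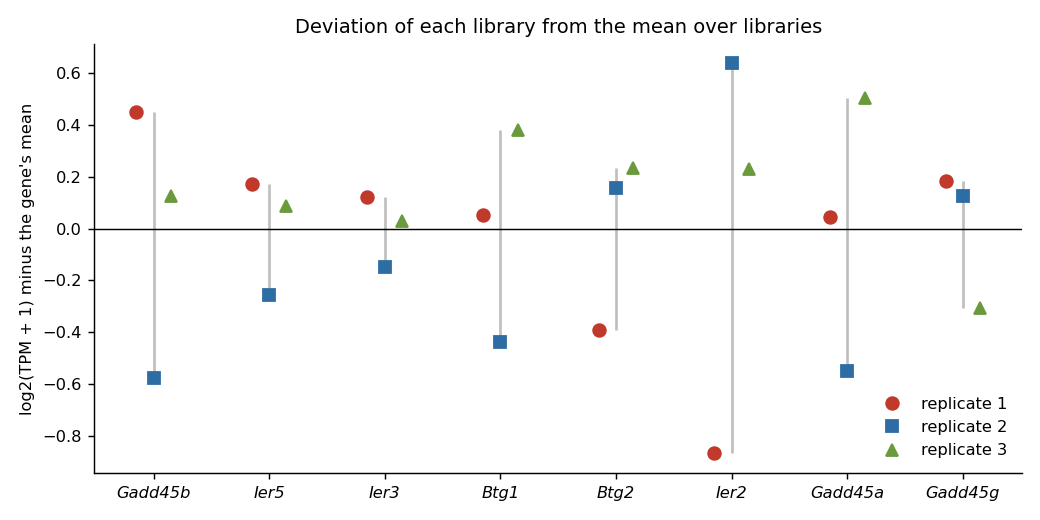
Deviation of each library from the gene's own mean in log2(TPM + 1), one symbol per library, with a grey line over the range. Replicate 2 lies lowest for Gadd45b, Ier5, Ier3, Btg1 and Gadd45a, and replicate 1 for Btg2 and Ier2, where it deviates by -0.39 and -0.87.

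Other primary response genes ran from 0 to 292 TPM, a wider range than the 8 genes, and also differed in which library was highest. Of 27 listed (chosen with earlier results of these data known), 22 had a mean of at least 1 TPM, led by Mcl1, an anti-apoptotic gene, at 292 ± 42.8 TPM and the NF-κB inhibitor gene Nfkbia at 111 ± 30.9 TPM. Fosl1, an AP-1 subunit gene, was lowest and listed at 0 in every library of the alignment-based table. Of the 25 detected, 12 were highest in replicate 1, 3 in replicate 2 and 10 in replicate 3, and 7 were lowest in replicate 1. Over all detected genes the shares were 38.9, 28.7 and 31.7% highest and 34.3% lowest in replicate 1. A 2-fold range was reached by 5 of 25, beside 3.7% of all detected genes. The median SD of the 25 in log2(TPM + 1) was 0.36, close to the 0.38 of the 8 genes. Fos, named after its values were seen, had 14.5, 57.6 and 52.2 TPM, low in replicate 1 as Ier2 and Btg2 were. Plk2, a kinase gene on this list and on that of p53 targets, had 107, 48.7 and 78.6 TPM, in the order of Gadd45b.

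**Figure D3:**
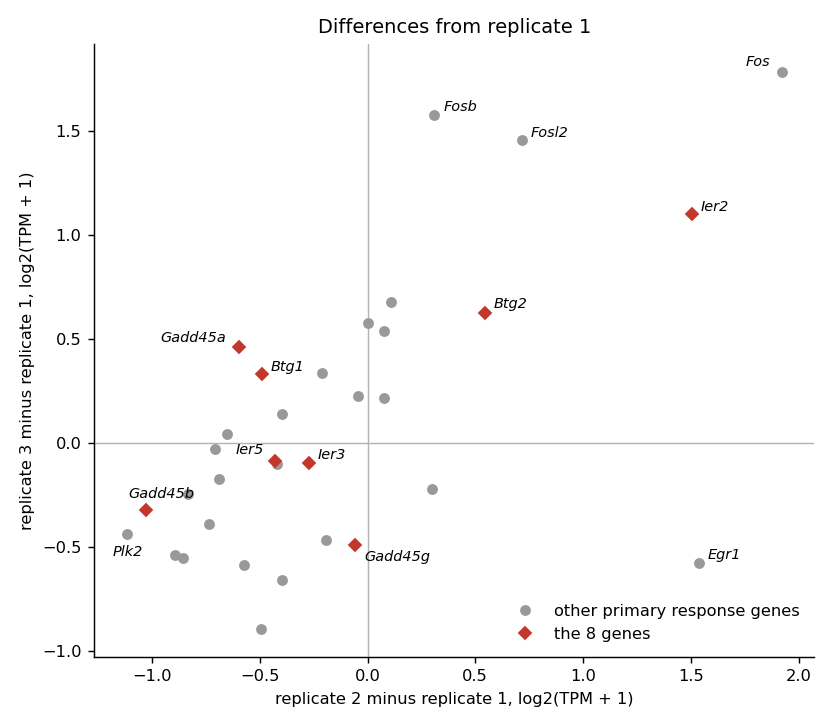
Differences of replicate 2 (x axis) and replicate 3 (y axis) from replicate 1 in log2(TPM + 1), for the 8 genes (diamonds) and the 25 detected other primary response genes (circles). Both axes share the replicate 1 value, so a diagonal trend is built in. Ier2 and Btg2 lie in the upper right with Fos, and Gadd45b lies in the lower left with Plk2.

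Among p53 targets, the class to which Btg2 and Gadd45a belong, 15 of 16 had a mean of at least 1 TPM. Mdm2, which degrades p53, was highest at 188 ± 29.9 TPM, followed by Plk2 at 78.0 ± 29.0 TPM, and the death receptor gene Tnfrsf10b was lowest at 0.680 ± 0.193 TPM. Of the 16, 4 were highest in replicate 1, 4 in replicate 2 and 8 in replicate 3. The shares over all detected genes were 38.9, 28.7 and 31.7%, and the counts were not tested against them. Gadd45a and Btg2, both with their highest value in replicate 3 but with an interval there that overlapped another library's, stood at 5.65 and 13.3 TPM. Of 7 genes for the p53 family and its regulators, 5 reached 1 TPM, led by Mdm4 at 222 ± 12.2 TPM and the kinase gene Atr at 24.6 ± 1.80 TPM, while the p53 relative Trp63 was listed at 0.

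Known partners of the 3 families were expressed almost throughout. All 13 Btg partners reached 1 TPM: the poly(A)-binding protein gene Pabpc1 had 85.9 ± 3.86 TPM, the deadenylase scaffold gene Cnot1 81.3 ± 1.00 TPM, and Pabpc4 was lowest at 5.74 ± 1.10 TPM. All 12 Gadd45 partners did, from the p38 kinase gene Mapk14 at 54.8 ± 6.22 TPM and the JNK gene Mapk9 at 46.2 ± 3.06 TPM down to the p38-activating kinase gene Map2k6 at 1.13 ± 0.522 TPM. All 10 Ier partners did, among them the PP2A subunit gene Ppp2r5c at 28.1 ± 1.23 TPM and another PP2A subunit gene, Ppp2cb, which was lowest at 2.82 ± 0.326 TPM. The median SD over libraries was 0.15, 0.20 and 0.12 in log2(TPM + 1) for the Btg, Gadd45 and Ier partners, against 0.38 for the 8 genes themselves and 0.36 for the other primary response genes. Relatives of the 8 genes were lower: 5 of 7 reached 1 TPM, Tob2, an antiproliferative gene of the Btg family, was highest at 12.1 ± 0.839 TPM, followed by Ier3ip1, named for binding Ier3, at 10.8 ± 1.25 TPM, and Btg4 was lowest at 0.363 ± 0.365 TPM from a mean of 1 count.

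Retained intron transcripts, which keep intron sequence and are common in chromatin RNA, are annotated for the 3 Gadd45 genes and none of the other 5. They made up 51.9, 46.9 and 68.5% of Gadd45a TPM in replicates 1, 2 and 3 (55.7 ± 11.3%), 27.8, 20.3 and 24.2% for Gadd45b (24.1 ± 3.76%) and 27.5, 25.1 and 23.1% for Gadd45g (25.2 ± 2.22%). Gadd45a thus exceeded the other 2 in every library, though its transcripts rested on few counts and part of the gene overlaps E230016M11Rik. Gadd45a has several such transcripts, of 472 to 824 bases against 1223 for Gadd45a-201, and the other 2 genes have 1 each. As shares of counts, which are not scaled by length, the coding transcript Gadd45a-201 took 59.5 ± 11.6%, the larger part. By counts the retained intron transcripts Gadd45b-202 and Gadd45g-202 took 13.3 and 20.2%. The comparison set was 6569 detected genes with such a transcript, a coding one and a mean of at least 1 TPM. Their median share of TPM was 46.8%, below the share of Gadd45a and above those of Gadd45b and Gadd45g. Of these genes 35.1% exceeded Gadd45a, 82.7% Gadd45b and 81.3% Gadd45g. In the read-based table the shares were higher, 67.2 ± 12.8% for Gadd45a, 35.8 ± 5.94% for Gadd45b and 34.0 ± 1.79% for Gadd45g, against a median of 45.3%. The order with Gadd45a first and the other 2 below the median was found in both tables. Intron reads of Ier3 and Btg2, which have introns of 109 and 1208 bases but no annotated retained intron form, cannot be seen in these tables. Btg1 has no such form either, and its main transcript has an intron of 803 bases. Its other coding transcript, Btg1-202, starts farther downstream and has an intron of 447 bases. Some Btg1 intron reads may therefore be counted under Btg1-202, which was not tested.

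Single transcripts were the rule for Ier2, Ier3, Ier5 and Btg2, which have 1 annotated transcript each. Gadd45b-201, the 4-exon coding transcript, took 55.3 ± 2.55% of Gadd45b TPM, the retained intron transcript Gadd45b-202 24.1 ± 3.76% and the shorter coding transcript Gadd45b-203 20.5 ± 2.97%. Gadd45g-201 took 74.8 ± 2.22% and Gadd45g-202 the rest. Gadd45a-201 took 44.3 ± 11.3% and the retained intron transcript Gadd45a-202 33.5 ± 7.32%, while the coding transcripts Gadd45a-206 and Gadd45a-207 were listed at 0 in every library. Btg1-201, of 5001 bases, took 72.2 ± 0.79% of Btg1 TPM and Btg1-202, of 668 bases, 27.8 ± 0.79%. As shares of counts, which are not scaled by length, they were 96.6 and 3.38%.

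The leading transcript was the same in both tables for 7 of 8 genes, of which 4 have a single annotated transcript, so among the genes where it could differ it was 3 of 4. The exception was Gadd45a, where Gadd45a-202 had the higher mean TPM in the read-based table, by a small margin. By mean share Gadd45a-201 still led there, with 32.8 against 31.8%. By counts, and without replicate 2 or without replicate 3, the leading transcript was the same for all 8 genes. The share of the leading transcript was lower in the read-based table for each of the 4 genes with several transcripts, 59.7% for Btg1-201, 40.1% for Gadd45b-201, 66.0% for Gadd45g-201 and 32.8% for Gadd45a-201. Shares between overlapping isoforms thus differed between the tables, and the reason was not tested.

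**Figure D4:**
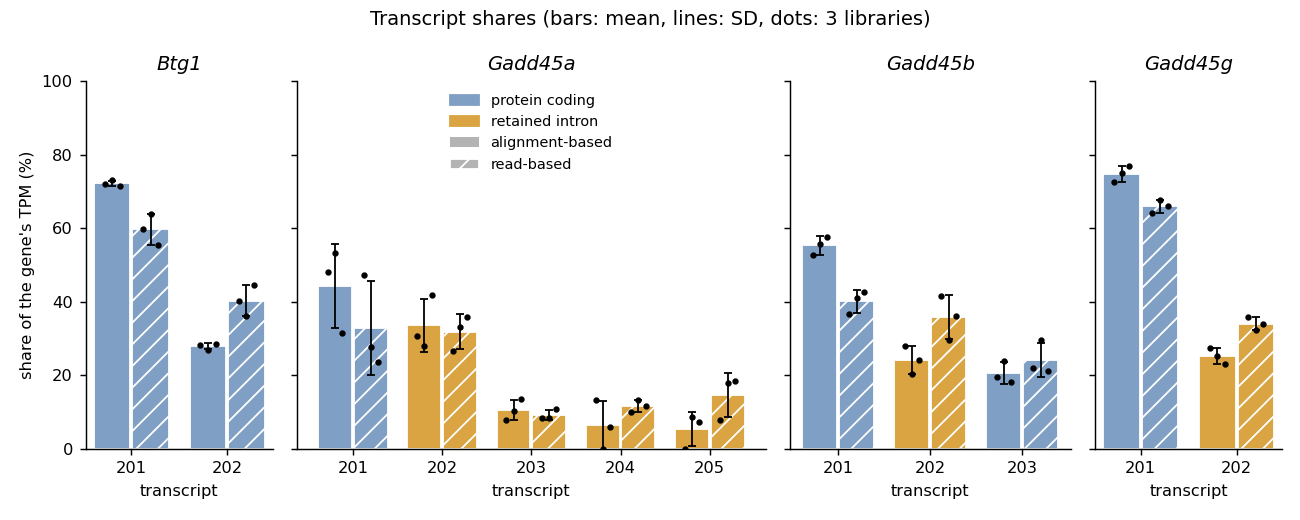
Share of each gene's TPM in its transcripts (bars, mean; lines, SD; dots, the 3 libraries) in the alignment-based (plain) and read-based (hatched) tables, coding transcripts blue and retained intron transcripts yellow. Transcripts listed at 0 in every library are left out. Read-based bars of the first transcript are lower in all 4 genes.

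Levels of Ier3, Ier5 and Btg2 were lower in the read-based quantification by more than their SD between libraries, and those of the other 5 genes differed by less. The ratio of read-based to alignment-based mean TPM ran from 0.712 (Ier5) to 1.06 (Gadd45b), with a median of 0.890 against 1.29 over detected genes. None of the 8 genes was at least 1.5-fold higher in the read-based table, against 37.4% of detected genes. In estimated counts the read-based table was higher for all 8, with a median ratio of 1.34 against 1.76 over detected genes, and with 1.15 for Ier5 and 1.59 for Gadd45a at the ends.

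**Figure D5:**
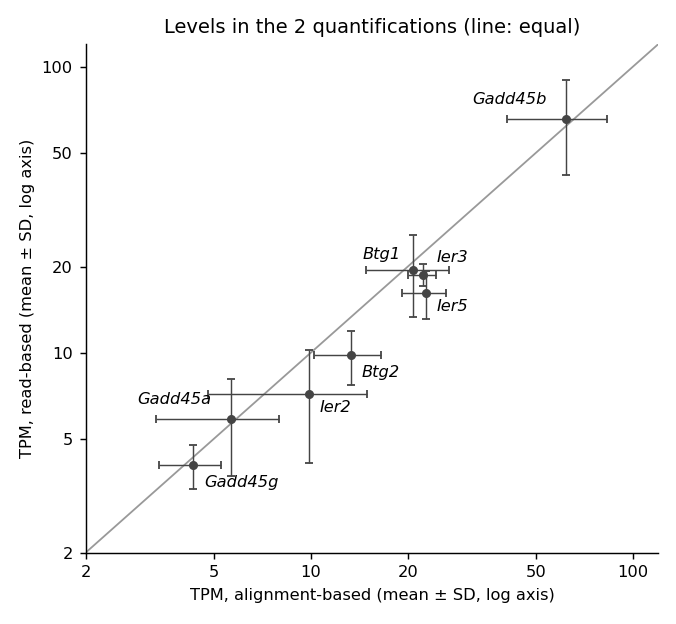
Mean TPM of each gene in the alignment-based (x axis) and read-based (y axis) tables, both log axes, with SD over 3 libraries as bars. Genes on the line have equal values, and Ier2, Ier5 and Btg2 lie farthest below it, with ratios of 0.728, 0.712 and 0.736. Ier3, Gadd45g and Btg1 also lie below it, with ratios of 0.842, 0.938 and 0.940.

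The main transcripts of the 8 genes were short, with a median of 1403 bases against 2772 over 21019 protein-coding genes. The 3′ UTR motif ATTTA, a core of AU-rich elements that mark mRNA for rapid decay, was counted in each main transcript. It occurred 11 times in Btg1, 5 times in Ier3 and in Btg2, and 2 times in Ier5 and in Gadd45a, but in none of Ier2, Gadd45b and Gadd45g. Ier3 had the highest density, 8.16 per kb, against a median of 1.22 over protein-coding genes. In all, 5 of 8 held at least 1, beside 64.7% of protein-coding genes, so the motif did not set the 8 genes apart.

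The detected protein-coding gene nearest to each member in log2(TPM + 1) over the 3 libraries was found among 11747 genes, by Euclidean distance. For Ier2 it was Fam214a, with 5.62, 12.3 and 10.4 TPM, at a distance of 0.36, and only 4 genes lay within 0.5. For Gadd45b it was Plek, the gene for the protein kinase C substrate pleckstrin, with 78.5, 39.3 and 68.8 TPM at 0.10, and 65 genes lay within 0.5. For Gadd45a it was Bbc3, the p53 target gene for PUMA, with 5.55, 3.90 and 8.43 TPM at 0.18, among 70 within 0.5. The nearest genes to the others were Cops9 for Ier3 (0.02, 865 genes within 0.5), Plpp5 for Ier5 (0.04, 694), Cd28 for Btg1 (0.11, 197), Zdhhc14 for Btg2 (0.07, 461) and Pin4 for Gadd45g (0.06, 388). In the read-based table the same pairs lay farther apart, from 0.39 for Btg1 and Cd28 and 0.48 for Ier2 and Fam214a, through 0.67 for Btg2, 1.11 for Ier3, 1.27 for Gadd45g, 1.62 for Ier5 and 2.61 for Gadd45b, to 4.401 for Gadd45a and Bbc3. With 3 libraries many genes lie close by level alone, and these neighbours are descriptions of 3 values each.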

How the data were processed

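Total RNA of the chromatin fraction was measured in 3 libraries of 1 group. The authors deposited, per library, a gene table and a transcript table with expected counts and TPM estimated from alignments to the transcriptome, and a read-based transcript table with estimated counts and TPM, on mm10 with GENCODE M21 per the README files. The authors' gene table also gives posterior mean TPM and the bounds of a TPM interval, a signal never below 0. The authors' transcript table gives each transcript's percent of its gene. The sources used here name no tools or versions. The members and gene lists were chosen with earlier results of these data known.

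Read-based values were summed per gene. Levels are log2(TPM + 1), a scale that compresses differences at low values. Detected means a mean expected count of at least 10. Rows that name no annotated gene (1.24, 0.482 and 0.228% of the counts in replicates 1, 2 and 3) were set aside. TMM factors (edgeR 4.0.16) and size factors (DESeq2 1.42.0, R 4.3.3) came from expected counts after rounding and were used for scaling only. In counts simulated for 15879 genes with 200 changed, folds of 2 and 4 in replicate 1 came back as 0.90 and 1.96 on the log2 scale. Named genes were the 8 members, their transcripts with at least 10% of TPM, pseudogenes and overlapping genes, the 2 highest and the lowest gene of each list by mean TPM, and each member's nearest gene. A gene that this rule takes is not reported here. Markers were fixed the same way. Python 3.11.15, numpy 2.4.6, pandas 2.3.3 and matplotlib 3.10.9 were used. Alternatives covered quantification, point estimate, scaling, pseudocount, filters, thresholds and leaving out each library. With 1 group there was no test between conditions.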

Additional observations from a re-analysis of the deposited data

How the results depend on the processing

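The median level of the 8 genes, 4.07 in log2(TPM + 1), was 3.75 in the read-based table, 4.94 with TPM rescaled without features under 200 nt and 3 rRNA-linked genes, 4.43 over members with a mean count of at least 100, and 4.50 (both) with TMM or DESeq2 scaling, whose values are not per length. Leaving out each library gave 3.96 to 4.14. The rescaling raised every member's TPM by more than its SD, since it removed 449658 to 485816 TPM per library. The number of genes with a 2-fold range, 3, was 1 with TMM scaling, 1 with DESeq2 size factors, and 1 to 2 with a library left out. The numbers highest in replicate 1, at 10 TPM or more, 1.5-fold higher in the read-based table or with the same leading transcript stayed within 1.5 times the reported count in each alternative run, and so did the median spread. The number highest in replicate 1 has no value without that library. Of the levels of single members under these alternatives, 11 moved by more than 1 SD and 37 did not. As shares of counts the leading transcripts took 96.6% in Btg1, 59.5% in Gadd45a, 73.8% in Gadd45b and 79.8% in Gadd45g. Gadd45g and Gadd45a rested on the fewest counts, so differences between libraries in them are the least precise. No paired analysis was possible because there is 1 group.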
